A study of Homo sapiens with 24 samples.

Results

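The regions described here are the peaks on the short arm of chromosome 7 (7p, taken as every peak of chromosome 7 starting before position 58000000 in GRCh37) in 6 merged peak lists from a chromatin immunoprecipitation and sequencing (ChIP-seq) experiment against a MYC epitope tag. The arm held 310 of the 6236 peaks in the lists. The arm and its bands were selected on the positions and density of the called peaks themselves, so the numbers and densities of peaks are given as descriptions, without a test against the rest of the genome. The cells were PC9, an established human lung adenocarcinoma line driven by a mutant EGFR, and PC9-OR, its osimertinib-resistant form, kept in 1 uM osimertinib, an inhibitor of the EGFR kinase. PC9 was Untreated and was either Wild-Type or carried METTL7A-MYC-tag-FLAG Overexpression. The PC9-OR groups were Wild-Type, cells with EV-MYC-tag-FLAG (empty vector) Overexpression, with METTL7A-MYC-tag-FLAG Overexpression, and with METTL7A-MYC-tag-FLAG-K86A Overexpression, called K86A below, and all 4 of these groups were under osimertinib. METTL7A belongs to the methyltransferase-like family and sits on the endoplasmic reticulum and on lipid droplets. Wild-Type cells carry no tagged METTL7A, and the sources used here do not give the promoter of the constructs or whether a line is 1 clone. Each of the 6 groups had 2 MYC-tag libraries and 2 input libraries, 24 in all, sequenced to 20M paired-end reads each, per the labels' protocols.

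Peaks of both replicates stood in 1 list per group. Peak numbering restarts within 4 lists, which gives 10 peak-calling runs in all: 2 in each of these 4, and 1 in the PC9 METTL7A and K86A lists. Runs were kept apart and are named by their place in the list. Taking a run as a replicate is an inference. In each run the number of DNA fragments at a peak's summit and the local background (the fragment number the peak caller expected there) were recovered from the deposited fold enrichment and p-value. The most common background of a run is called its floor, and a peak's background is given in floors of its own run. In PC9-OR the floor was 0.676 fragments for METTL7A run 1, 0.341 for METTL7A run 2, 0.170 for empty-vector run 1 and 0.0167 for wild-type run 1, and in PC9 it was 0.151 for METTL7A, 0.0131 for wild-type run 1 and 0.211 for wild-type run 2. Runs thus differed by over an order of magnitude in the background that a peak had to exceed.

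EGFR, at 7p11.2, encodes a receptor tyrosine kinase that dimerises on binding its ligands and signals through the RAS and PI3K pathways, and mutation or amplification of the gene is common in lung adenocarcinoma. The arm also carries PDGFA (a growth factor ligand), MAFK (a small MAF transcription factor) and MAD1L1 (a spindle checkpoint protein) in its last band, 7p22.3, and the HOXA homeobox cluster in 7p15.2. Tumour gains of 7p often take in the whole arm or a focal segment around EGFR. The peak lists hold no measure of copy number, and copy number was not analysed here. Peak lists give no expression, so neither the cell type nor the tagged protein could be checked in them. Genes serve below as landmarks of a band. The RefSeq gene table at hand is on GRCh38.p14, not GRCh37, so no peak was assigned to a gene, exon, intron or promoter, and the sequence under the peaks was not analysed. By order in that table the protein-coding neighbours of EGFR are VSTM2A and SEC61G on one side and LANCL2 and VOPP1 on the other.

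The 7p peaks came mostly from 1 run, which was also by far the largest over all chromosomes. PC9-OR METTL7A run 2 held 270 of the 310 peaks on 7p, beside 4870 of the 6236 peaks in all lists. PC9 wild-type run 1 held 29, PC9 wild-type run 2 held 3, the PC9 METTL7A run held 4, PC9-OR wild-type run 1 held 1 and PC9-OR METTL7A run 1 held 3. The other 4 runs, PC9-OR wild-type run 2, both empty-vector runs and the K86A run, held 0 on 7p, and 3 of them consisted of a single peak. The METTL7A runs of PC9-OR stood above the wild-type and empty-vector runs in 2 of 2 cases, but they lay far apart from each other. On the log2(peaks + 1) scale the mean was 5.04 ± 4.30 (SD, n = 2 runs) with METTL7A and 0.25 ± 0.50 (SD, n = 4 runs) in the controls, a difference of 4.79. Without run 2 it was 1.75. Over all chromosomes these runs held 67 and 4870 peaks with METTL7A, and 9 and 1 (wild type) and 5 and 1 (empty vector) in the controls. The counts on 7p were not separated from these differences in run size. These values are a description, since the arm was chosen on the same peaks. In PC9, the METTL7A list had 4 peaks on the arm (exact 95% Poisson interval 1.09 to 10.2) in its only run, and no test against the wild-type runs was made.

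As a share of a run's own peaks, 7p took 5.54% of PC9-OR METTL7A run 2 (270 of 4870, exact 95% Clopper-Pearson interval 4.92 to 6.22%). The arm makes up 1.87% of the length of the standard chromosomes. The share was 2.54% in PC9 wild-type run 1 (29 of 1143, interval 1.71 to 3.62%), the other run with more than 100 peaks. These intervals do not overlap, but the arm was chosen with the peaks of run 2 in view. The small runs were less exact: 3.61% in PC9 wild-type run 2 (3 of 83, 0.752 to 10.2%), 7.14% in the PC9 METTL7A run (4 of 56, 1.98 to 17.3%), 4.48% in PC9-OR METTL7A run 1 (3 of 67, 0.933 to 12.5%) and 11.1% in PC9-OR wild-type run 1 (1 of 9, 0.281 to 48.2%). Each of these 4 intervals contains the share of run 2. Empty-vector run 1 had 0 of 5 peaks on the arm, which allows a share of up to 60% by the limit of 3 counts and up to 52.2% by the exact interval. Intervals cover counting error only, since neighbouring peaks of 1 library are not independent.

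**Figure D1:**
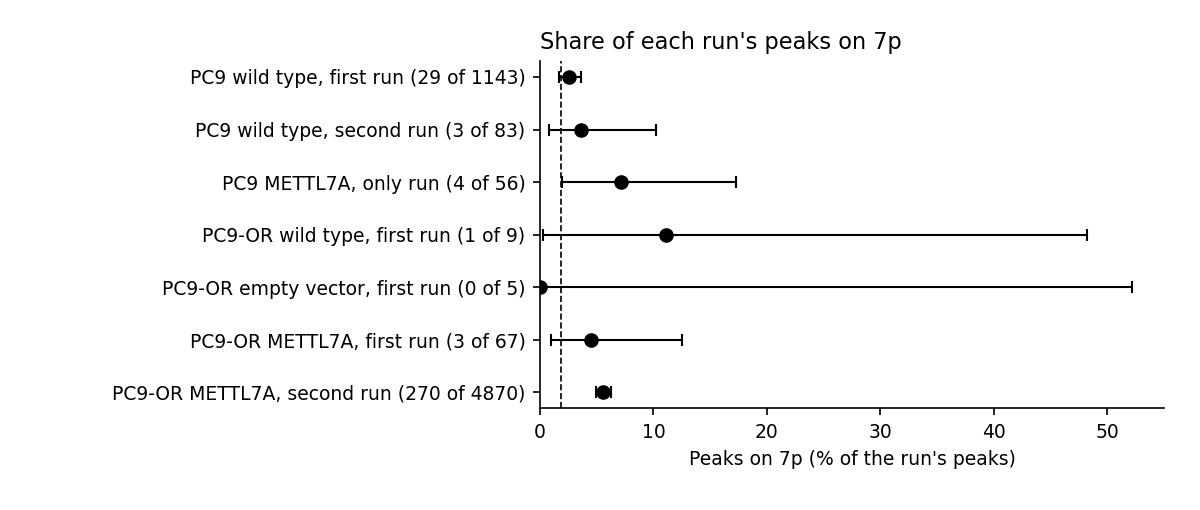
Share of each run's peaks that lay on 7p (x axis, percent) for the 7 runs with at least 5 peaks (y axis). Points are shares, bars are exact 95% Clopper-Pearson intervals and the dashed line is the arm's 1.87% share of genome length; the interval of PC9-OR METTL7A run 2 (4.92 to 6.22%) lies above that of PC9 wild-type run 1 (1.71 to 3.62%), and the small runs have wide intervals.

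Along the arm, the peaks of PC9-OR METTL7A run 2 fell into a dense end, a sparse middle and a moderately dense segment next to the centromere. Band 7p22.3, the last 2.8 Mb, held 123 peaks, 43.9 per Mb (exact 95% Poisson interval 36.5 to 52.4), which is 45.6% of the arm's peaks on 4.83% of its length. Bands 7p21.3 to 7p14.1, the 36 Mb that carry TWIST1, AHR, the HOXA cluster and GLI3, held 30 peaks, 0.833 per Mb, or 0.530 times the mean of 1.57 per Mb over the genome in that run. Bands 7p13 to 7p11.2, 14.7 Mb that carry CAMK2B, IGFBP3 and EGFR, held 100 peaks, 6.80 per Mb, or 4.32 times the genome mean. The remaining bands 7p22.2 and 7p22.1, the second with RAC1, held 17 peaks on 4.5 Mb. Of the 17 bands of the arm, 9 were above the genome mean density, against 205 of 862 bands (23.8%) of the whole genome.

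Among all 862 bands, 7p22.3 ranked 3 by density in this run. The next bands of the arm were 7p13 with 18 peaks (8.57 per Mb, rank 28), 7p11.2 with 33 peaks (8.25 per Mb, rank 31), 7p12.3 with 24 peaks (6.67 per Mb, rank 39), 7p12.1 with 22 peaks (6.29 per Mb, rank 43) and 7p22.2 with 9 peaks (5.29 per Mb, rank 61). The density of 7p13, the band of CAMK2B (a calmodulin-dependent kinase subunit), was level with that of the EGFR band within counting error. Only 7p12.2, the band of the lymphoid transcription factor gene IKZF1, broke that segment, with 3 peaks at 2.00 per Mb. At the low end, 7p21.2, the band of the ETS factor gene ETV1, held 0 peaks, and 7p14.1, with INHBA and GLI3, held 2.

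**Figure D2:**
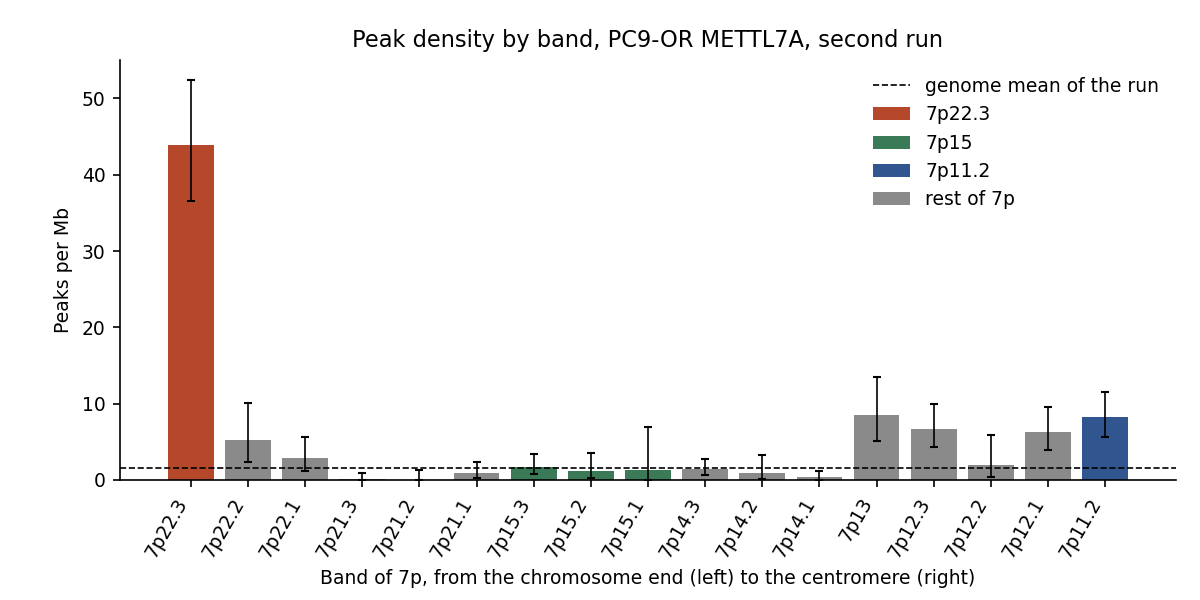
Peaks per Mb in each band of 7p, from the end of the arm to the centromere, in PC9-OR METTL7A run 2. Bars start at 0 and the error bars are exact 95% Poisson intervals for counting error; 7p22.3 stands at 43.9 per Mb, the bands from 7p13 to 7p11.2 other than 7p12.2 between 6.29 and 8.57, and the bands from 7p21.3 to 7p14.1 at the bottom of the axis.

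In PC9-OR METTL7A run 2 the peaks of 7p22.3 were spread over the whole band. The first Mb of the chromosome held 51, the second 31 and the last 0.8 Mb of the band 41, or 51.25 per Mb. The fullest window of 100 kb, from 400001 to 500000, held 14 peaks within 66.2 kb, with folds from 3.73 to 6.71. The window from 2100001 to 2200000 held 13. The highest folds of the band were 8.95 at chr7:1920107-1920757, with 11 fragments and background at the floor, 7.88 at chr7:2160620-2160979, with 10 fragments, and 7.46 at chr7:579512-580686, a peak of 1175 bp with 9 fragments. A peak only a few kb from the last of these, chr7:576530-577422, had the band's highest background at 6.52 floors and a fold of 3.41 on 10 fragments. Since background was solved from the fold, a lower fold at a similar fragment number gives a higher background by construction.

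The EGFR band 7p11.2 held 33 peaks in the same run on 4.0 Mb, at 3.50 times the density of the arm outside 7p22.3, 7p15 and 7p11.2 (8.25 against 2.36 per Mb, intervals 5.68 to 11.6 and 1.92 to 2.86). They were confined to part of the band: all 33 lay between 55073062 and 56652944, 29 of them in the Mb from 55000001 to 56000000 and 4 in the next, with 0 in the first and 0 in the last Mb of the band. The fullest 100 kb window outside 7p22.3 was here, from 55200001 to 55300000, with 11 peaks in 79.2 kb. Folds in that window ran from 4.23 to 7.46 and fragments from 5 to 10. A further group of 4 peaks stood within 6.93 kb at 55341234 to 55348164, and 6 more in the window from 55500001 to 55600000.

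The strongest 7p11.2 peak, chr7:55497458-55497876, had a fold of 8.24 on 13 fragments with a background of 2.05 floors. The next, chr7:55224699-55225141, had a fold of 7.46 on 9 fragments at the floor, and chr7:55201199-55201720 had 6.82 on 9 fragments at 1.37 floors. The widest peak, chr7:55212001-55213326, spanned 1326 bp with a fold of 6.71 and 8 fragments, and it was also the widest on the arm. At chr7:56132002-56132388, 16 fragments, the most of any 7p peak in the run, gave a fold of only 3.61 over a background of 10.9 floors. By number of fragments, then, these were shallow peaks: the median in the band was 7 and the maximum 16.

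In 7p15, the band group with SP4, IL6 and the HOXA genes, run 2 had 12 peaks on 7.9 Mb, 1.52 per Mb (interval 0.785 to 2.65). This was 0.645 times the density of the rest of the arm, but the intervals of the 2 overlap. None of the fixed 100 kb windows there, counted from the chromosome end, held more than 1 peak, although 1 of the 11 gaps between neighbours was within 10 kb. The highest fold of the whole arm was nevertheless in 7p15.3, 9.70 at chr7:25164734-25165197 with 13 fragments and 1.30 floors. It was followed by 6.32 at chr7:21500802-21501247, with 10 fragments and 2.17 floors, and by 5.22 at chr7:22130022-22130561, with 6 fragments. Band 7p15.2, which carries the HOXA cluster of developmental homeobox genes, had 3 peaks, the first at chr7:27147503-27147890 with a fold of 4.59 on 7 fragments.

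The remaining 43.3 Mb of the arm held 102 peaks of run 2. The highest folds were 7.46 at chr7:44281776-44282126 in 7p13, 7.28 at chr7:44796014-44796854 and 6.71 at chr7:45725256-45725810 in 7p12.3, the band of IGFBP3 (a binding protein of insulin-like growth factors). The fullest window, from 44200001 to 44300000 in 7p13, held 6 peaks, all at the floor. A stretch of 6.02 Mb from 6887850 in 7p22.1 to 12903915 in 7p21.3 had no peak, the longest gap on the arm.

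Recovered background was compared between the parts of the arm in run 2. Over the whole run, 24.4% of peaks had a background of at least 1.5 floors, called raised here, and on 7p it was 65 of 270, or 24.1%, so the arm as a whole was level with the run. In 7p11.2 the raised peaks were 12 of 33, or 36.4% (interval 20.4 to 54.9%). The other shares were 26.0% in 7p22.3 (32 of 123, 18.5 to 34.7%), 16.7% in 7p15 (2 of 12, 2.09 to 48.4%) and 18.6% in the rest (19 of 102, 11.6 to 27.6%). All 4 intervals overlap, so these counts do not settle the order of the raised shares. Differences in background between the parts were not tested. The median background was 1.23 floors in 7p11.2, 1.09 in 7p22.3 and 1.00 in both 7p15 and the rest, and the peaks at the floor were 36.4%, 43.1%, 75% and 66.7% in the same order, beside 58.6% of the run.

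The density of a band and its background did not go together throughout. Band 7p13, as dense as the EGFR band within counting error, had 0 raised peaks among 18, and 7p12.1 had 3 among 22. Its neighbour 7p12.3 had 9 among 24, with a median of 1.23 floors, the same as the EGFR band. Band 7p22.1, of RAC1, had few peaks, 8, but 5 of them were raised and their median was 1.78 floors. Its highest value, 4.35 floors at chr7:5519212-5519563, was the highest of the rest of the arm. Inside the EGFR band, 10 of the 29 peaks between 55000001 and 56000000 were raised and 10 were at the floor, so raised and floor-level peaks stood side by side.

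Background in this run moved in fixed steps. From the peaks off 7p the fine step was 0.0233 fragments, or 0.0683 floors, and a coarse step was 0.741 fragments, or 2.17 floors. On 7p, 128 peaks lay above the floor. Of the 122 with a background under 1 fragment, 109 lay within 0.0005 of a whole number of fine steps and the other 13 on the coarse step. Over the 128, 18 lay on a coarse step. The highest 7p11.2 value was 5 coarse steps and the highest of 7p22.3 was 3. The highest backgrounds of the arm were thus a few coarse steps.

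**Figure D3:**
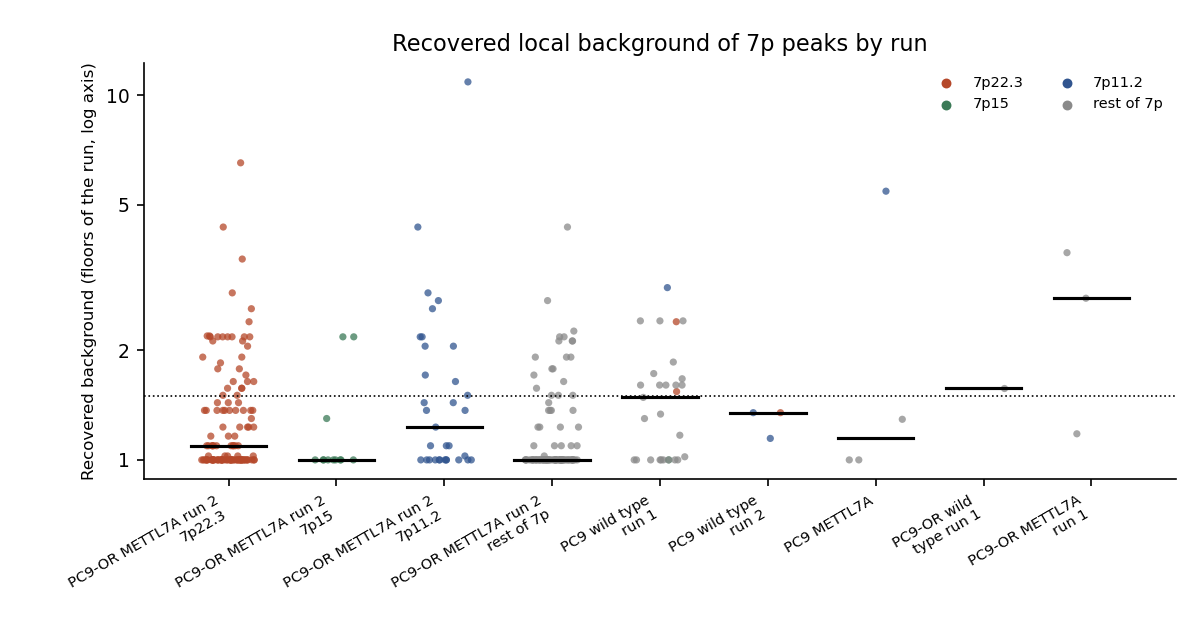
Recovered local background of each 7p peak (y axis, floors of its run, log axis) for the 4 parts of the arm in PC9-OR METTL7A run 2 and for the other 5 runs with 7p peaks. Each point is a peak, colours give the part of the arm, thick bars are medians and the dotted line is 1.5 floors; most points of run 2 sit at 1 floor, and the highest, 10.9 floors, is in 7p11.2.

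In run 2 the share of strong peaks was somewhat above that of the run in the EGFR band and 7p22.3, and below it in the rest of the arm. The counts behind these shares are small. A −log10 q of at least 5 was reached by 8.83% of the run and by 23 of 270 peaks (8.52%) on 7p. By part it was reached by 5 of 33 peaks (15.2%) in 7p11.2, 14 of 123 (11.4%) in 7p22.3, 1 of 12 (8.33%) in 7p15 and 3 of 102 (2.94%) in the rest. Conversely, peaks with at most 5 fragments made up 39.6% of the run and 31.9% (86) of 7p. They were 21.2% of the peaks in 7p11.2 (7), 19.5% in 7p22.3 (24), 66.7% in 7p15 (8) and 46.1% in the rest (47). Of the run's peaks, 8.36% were at least 800 bp wide. The dense bands were near that share, with 4 (12.1%) in 7p11.2 and 13 (10.6%) in 7p22.3. There were 0 in 7p15 and 4 (3.92%) in the rest. Median folds were 5.22, 5.21, 4.47 and 4.47 in the same order, beside 4.63 for the run. Peaks of 1 library are not replicates, and these differences between parts were not tested.

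In both dense bands of run 2 the peaks stood close together. The median distance to the previous peak was 9.77 kb in 7p22.3 (122 gaps) and 9.68 kb in 7p11.2 (32 gaps). The second band is the less dense over its whole length, but 29 of its 33 peaks lay between 55000001 and 56000000. In the rest of the arm it was 80.7 kb (100 gaps), and in 7p15 399 kb (11 gaps). Gaps of at most 10 kb made up 50.8% in 7p22.3, 50% in 7p11.2, 9.09% in 7p15 and 14% in the rest, beside 27.0% over the whole run. With peaks within 10 kb joined, the 273 peaks of the list became 180, and the density over the rest of the arm went from 18.6 to 10.7 times in 7p22.3 and from 3.50 to 2.09 times in 7p11.2.

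**Figure D4:**
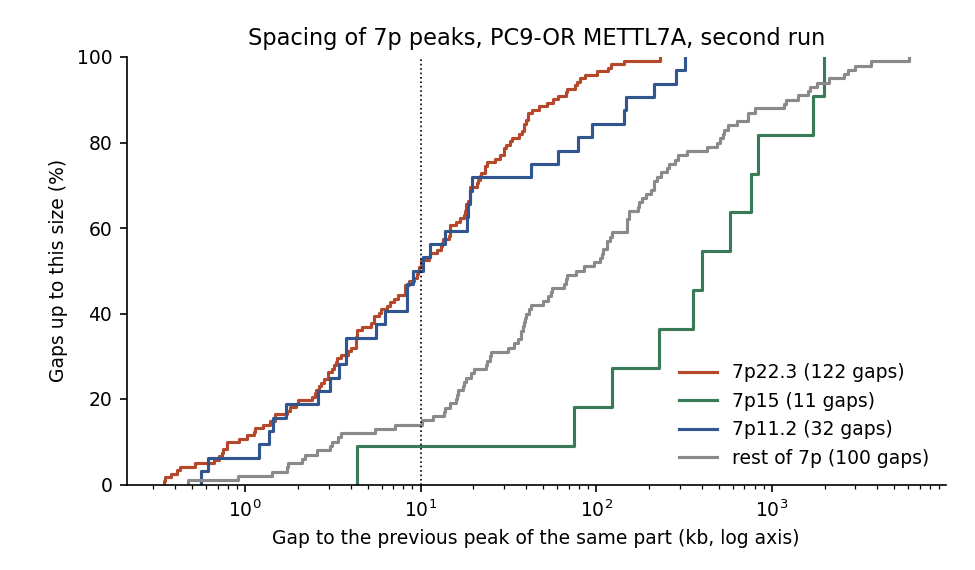
Cumulative share of gaps between neighbouring peaks of PC9-OR METTL7A run 2 (y axis, percent) up to a given size (x axis, kb, log axis) in the 4 parts of 7p. The dotted line is 10 kb, where 7p22.3 and 7p11.2 have reached 50.8% and 50% and the rest of the arm 14%.

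The other 5 runs held 40 peaks on the arm. PC9-OR METTL7A run 1, from the same group, had 3 peaks, and none was in 7p22.3, 7p15 or 7p11.2. They were chr7:33670727-33671020 in 7p14.3 (fold 4.45 on 7 fragments, 1.18 floors), chr7:48279215-48279443 in 7p12.3 (4.00 on 13 fragments, 3.70 floors) and chr7:53504883-53505159 in 7p12.1 (4.17 on 11 fragments, 2.77 floors). Raised background was seen in 2 of these 3, against 38.8% of that run. The nearest peaks of run 2 were 91059 to 148978 bp away, so no 7p position was called in both METTL7A runs of PC9-OR. With 3 peaks in run 1 this says nothing particular about 7p, and the overlap of these runs over the genome is not given here. The floor of run 1 was the higher of the pair, at 0.676 against 0.341 fragments.

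PC9 with METTL7A had a single peak in the EGFR band, chr7:54792691-54792957, with a fold of 6.04 on 10 fragments over a background of 5.45 floors, the only raised one of its 4 (19.6% in that run). It lay in the Mb of the band where run 2 had none. Its other peaks were chr7:11814271-11814532 in 7p21.3 (fold 4.35, 4 fragments), chr7:30599490-30599734 in 7p14.3 (4.19, 4 fragments) and chr7:39454756-39454991 in 7p14.1 (6.08, 6 fragments). The 1 peak of PC9-OR wild type, chr7:43682978-43683211 in 7p13, rested on 3 fragments with a fold of 3.90.

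Parental PC9 cells without any tagged METTL7A gave a few peaks in the same bands. The wild-type and empty-vector runs of PC9-OR held 0 in 7p22.3, 7p15 and 7p11.2, but these runs had at most 9 peaks over all chromosomes. PC9 wild-type run 2 had all 3 of its 7p peaks in the 2 dense bands: chr7:1506653-1507239 in 7p22.3 (fold 6.23) and, in the EGFR band, chr7:54612325-54612615 (6.44) and chr7:55433981-55434376 (6.23), each with 7 fragments. None of the 3 was raised, against 20.5% of that run. The peak at chr7:54612325-54612615 lay in the Mb of the EGFR band where PC9-OR METTL7A run 2 had none. It was 460446 bp from the nearest peak of that METTL7A run. PC9 wild-type run 1 spread its 29 peaks along the arm, with 2 in 7p22.3, 1 in 7p15, 1 in 7p11.2 and 25 in the rest. Bands 7p22.3 and 7p11.2 thus took 6.90% and 3.45% of its 7p peaks, on 4.83% and 6.90% of the arm's length. Of these 29 all but 2 rested on 2 fragments, as did 92.2% of the run, and the other 2, chr7:8245415-8245790 and chr7:53581109-53581417, on 3 with a fold of 3.95. Raised background was found in 14 of the 29 (48.3%, against 40.5% of the run). Its EGFR-band peak, chr7:55493085-55493320, had a fold of 2.89 on 2 fragments at 2.97 floors.

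No 7p position was shared between runs. In the 15 pairs of runs with 7p peaks, 0 peaks overlapped by 1 bp. The closest pair was chr7:1631830-1632140 of PC9 wild-type run 1 and chr7:1632854-1633447 of PC9-OR METTL7A run 2, in 7p22.3, 713 bp apart. The first had a fold of 2.91 on 2 fragments and the second 7.16 on 9 fragments. Within 10 kb there were 4 such pairs, 3 of them between these same runs. Over the genome, PC9-OR METTL7A run 2 overlapped a parental wild-type peak at 15 of its 4870 peaks, or 0.308%. The 0 overlaps among its 270 peaks on 7p are thus near the share of the whole run and are not a trait of 7p. For the other pairs the overlap over the genome is not given here.

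At the edge of the arm, the last peak of run 2 inside the limit was chr7:56652537-56652944 (fold 5.22, 6 fragments, at the floor) and the first outside it chr7:64697550-64697908 in 7q11.21 (4.91, 7 fragments, 1.85 floors). No peak of any list lay between 56652944 and the limit.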

How the data were processed

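Chromatin from PC9 and PC9-OR was immunoprecipitated with a MYC-tag antibody, and 12 immunoprecipitated and 12 input libraries were grouped by their titles, 2 to a group. The labels' protocols speak of biological replicates. Per the submitters' processing notes, the build was GRCh37 and the software bedtools 2.30, Bowtie2 2.4.2, deepTools 3.5.1, FastQC, MACS2 2.2.7.1, SAMtools 1.16 and Trimmomatic. Not given in the sources used here are the role and settings of each and the control for calling peaks.

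The 6 deposited lists have no header and the narrowPeak layout. The authors' deposited values are a score, a fold (a ratio to local background), −log10 p and −log10 q per peak, used only to describe, rank or filter peaks within a list. Coordinates are printed 1-based. Read totals were not used.

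Fragments t and background b were solved from fold = (t + 1)/(b + 1) and the Poisson upper tail. All 6236 peaks were recovered, 0 with another admissible solution, and on simulated data 500 of 500 pairs were recovered. Floors were taken for runs of at least 5 peaks. GRCh37 bands came from circlize 0.4.16, and genes were set to bands from textbook knowledge, with 27 of 27 found on chromosome 7 of the RefSeq table. Intervals are exact 95% intervals (scipy 1.17.1).

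The members, bands, landmark genes and tests were chosen with earlier results of these data known. A planned permutation test of 7p peaks per run is not reported, since the arm was chosen on those peaks. Named peaks are all 7p peaks of runs with at most 10 there. In longer runs they are the 3 highest folds, the highest background and the fullest 100 kb window of each part, plus peaks within 1 kb of another run's. Other peaks named, such as the widest of the EGFR band, the first of 7p15.2, the parental peak there and those at the arm's edge, were chosen after their values were seen. Alternatives were a −log10 q of at least 5, at least 5 fragments, joining within 1 kb and 10 kb, a 1 Mb centromere margin, 5 Mb windows, other floors and overlaps, wild type alone as control, a pseudocount of 0.5 and leaving out each run.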

Additional observations from a re-analysis of the deposited data

How the results depend on the processing

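The difference between PC9-OR METTL7A and control runs ranged from 1.75 to 7.83 on the log2 scale with each run left out in turn. No paired analysis was possible because the peak names of the METTL7A and wild-type lists carry no replicate numbers. Leaving out each run, the PC9-OR METTL7A list held 3 to 270 peaks on 7p and the PC9 wild-type list 3 to 29. With run 1 in the place of run 2, the share of peaks on 7p was 4.48%, the density ratios of 7p22.3, 7p15 and 7p11.2 to the rest of the arm were 0, 0 and 0, and 66.7% of the rest was raised. The raised share of those 3 parts then had no value, since run 1 had no peak in them.

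With a −log10 q of at least 5, the lists kept 23 (PC9-OR METTL7A), 0 (PC9 wild type) and 0 (PC9 METTL7A) peaks on 7p. The density ratios were then 72.2 for 7p22.3 (14 peaks), 1.83 for 7p15 (1 peak) and 18.0 for 7p11.2 (5 peaks), on a rest of 3 peaks. The raised shares were 7.14%, 0%, 20% and, for the rest, 0%. With at least 5 fragments the PC9 wild-type list kept 3 and the PC9 METTL7A list 2. Joining within 10 kb left 180 peaks in the PC9-OR METTL7A list and ratios of 10.7 for 7p22.3 and 2.09 for 7p11.2. With 5 Mb windows the ratio of the window holding 7p22.3 was 11.5. With raised set at 2 floors, the shares were 14.6% in 7p22.3 and 7.84% in the rest. With peaks widened by 1 kb on each side, 1 pair of positions was shared. The ratio of 7p15 thus went from under 1 to over 1 with the stricter q, but on 1 peak. Those of 7p22.3 and 7p11.2 went from over 1 to 0 with run 1 in the place of run 2. Most 7p peaks rest on few fragments (median 6 in run 2), and no 7p position was called in a second run as deposited.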

Other observations

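In PC9-OR METTL7A run 2 the light bands of Giemsa staining were denser in peaks than the dark bands, on 7p as over the genome. On 7p much of this contrast came from 7p22.3. Light bands are on the whole rich in genes and early replicating, and dark bands poor in genes. The 9 light bands of 7p, among them 7p22.3, 7p13 and 7p11.2, held 196 peaks, 8.34 per Mb (exact 95% Poisson interval 7.21 to 9.59), and the 8 dark bands 74 peaks, 2.14 per Mb (1.68 to 2.69). Without 7p22.3 the light bands of the arm were at 3.53 per Mb (2.76 to 4.43). Over the genome the light bands stood at 2.57 per Mb and the dark bands at 0.935. The dark bands 7p12.3 and 7p12.1, beside the EGFR band, went against this division with 6.67 and 6.29 per Mb, as did the dark band 7p22.2 with 5.29. Several light bands were below the 2.14 per Mb of the dark bands. They were 7p21.2 (0), 7p14.2 (0.909), 7p15.1 (1.25), 7p15.3 (1.74) and 7p12.2 (2.00).

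The pattern of a dense last band was shared by 5p in the same run. There 182 of 286 peaks (63.6%) lay in 5p15.33, against 123 of 270 (45.6%) in 7p22.3 for 7p. These are shares of peaks and take no account of the lengths of the bands and arms, so they do not rank the bands by density. The long arm of chromosome 7 held 111 peaks at 1.12 per Mb, with 29 (26.1%) in its last band, 7q36.3. Raised background was found in 24.1% of 7p peaks, 29.4% of 5p peaks and 16.2% of 7q peaks of that run. These arms were compared as descriptions only.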
